A study of Mus musculus with 14 samples.

Results

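The genes described here encode the proteins of the mitochondrial ribosome, followed in peritoneal B-1a cells of Bmi1 knockout (KO) mice and of wild-type (WT) mice. They were chosen by name, as every gene name of the array made of Mrpl or Mrps and a number, with or without a letter after it. Rbfa, an assembly factor of the ribosome's small subunit, was added. This gave 77 gene names out of 34821 on the array. Of the 77, 49 encode large-subunit proteins, 26 encode small-subunit proteins, and the remaining names are Rbfa and Mrps36, whose product is now assigned to the 2-oxoglutarate dehydrogenase complex. Subunits follow the current structural assignment and not the letter in the name, so Mrps18a and Mrps30 are counted with the large subunit. After removal of probes that were dim in both genotypes, 71 of the 77 genes, with 100 probes, were tested among 20407 genes.

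Mitochondrial ribosomes translate the few mRNAs of the mitochondrial genome, all of which encode core subunits of the respiratory chain and the ATP synthase. Every protein of the mitochondrial ribosome is encoded in the nucleus, made on cytoplasmic ribosomes and imported. Some descend from bacterial ribosomal proteins and others were acquired in the mitochondrial lineage. B-1a cells, a self-renewing B cell type of the body cavities, produce natural antibodies. The Bmi1 protein belongs to the Polycomb group, which keeps target genes silent. The arrays ask which genes differ in these cells when Bmi1 is missing.

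The series holds 7 Bmi1 KO and 7 WT samples, each hybridised to its own one-colour array. The study was done in 2 sets of experiments; titles are numbered in 2 styles, which were read as the sets. Set 1 then has 3 KO and 3 WT arrays and set 2 has 4 KO and 4 WT arrays. No further allele, treatment, strain or age is given in the labels, nor whether samples are from different animals or from pools. The p-values therefore reflect the spread between these arrays, part or all of which could be technical, and precision is limited by their number. In cells measured in bulk, fewer cells of a type and less RNA per cell cannot be told apart.

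The promoters were searched for 3 motifs whose binding factors are known regulators of mitochondrial genes: CCGGAAG for ETS factors such as Gabpa, GCATGCG for Nrf1 and AAGATGG for Yy1. Windows ran from 250 bases before to 50 bases after the RefSeq start of each gene (GRCm38.p6), both strands were searched, and 67 of the 77 genes had a window. The ETS motif occurred in 24 of the 67, or 35.8%, against 9.93% of all 27025 promoters in the table and 12.90% of those of protein-coding genes. Of its 28 sites, 25 lay between 100 bases before and 50 bases after the start. The Nrf1 motif occurred in 11.9% of the gene family's promoters, against 4.01% of all promoters, and the Yy1 motif in 19.4%, against 7.28%. The E-box CACGTG, bound by Myc among others, was found in 7.5%, against 8.09% of all promoters. An ETS motif and a Yy1 motif can share the letters AAG, and a match describes letters only. Among the genes followed array by array below, 4 have a motif between 100 bases before the start and 20 bases after it. These stretches are shown, with motif letters in capitals on either strand. That of Mrpl33 has the Nrf1 motif next to the ETS motif, and that of Mrpl53 has the ETS motif at 2 places.
Mrpl33 promoter, chr5:31613851-31613970, plus strand: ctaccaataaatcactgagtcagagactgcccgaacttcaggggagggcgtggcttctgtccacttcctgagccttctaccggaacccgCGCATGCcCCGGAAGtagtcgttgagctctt
Mrpl21 promoter, chr19:3282942-3283061, plus strand: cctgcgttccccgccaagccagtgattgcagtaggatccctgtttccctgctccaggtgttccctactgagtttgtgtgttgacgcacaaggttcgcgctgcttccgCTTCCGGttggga
Mrpl27 promoter, chr11:94653691-94653810, plus strand: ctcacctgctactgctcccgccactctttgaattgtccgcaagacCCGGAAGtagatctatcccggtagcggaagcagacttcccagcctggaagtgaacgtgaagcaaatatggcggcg
Mrpl53 promoter, chr6:83109008-83109127, plus strand: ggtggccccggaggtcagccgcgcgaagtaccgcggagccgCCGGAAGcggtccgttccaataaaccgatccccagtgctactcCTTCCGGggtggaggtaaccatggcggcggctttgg

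The measurement itself rests on 60-base probes, 3 of which are printed because they carry the values of Mrpl30, Mrps9 and Mrpl37 below. Positions are those of the array's annotation in build mm9. The positions given for the Mrps9 and Mrpl37 probes span 3805 and 1302 bases, far more than the probe, so each crosses an intron of its gene and lies in exons on both sides.
Mrpl30 probe, chr1:37954938-37954997, plus strand: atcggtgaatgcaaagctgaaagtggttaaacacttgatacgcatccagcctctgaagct
Mrps9 probe, chr1:42956365-42960169, plus strand: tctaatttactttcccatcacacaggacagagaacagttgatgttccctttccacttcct
Mrpl37 probe, chr4:106733238-106734539, minus strand: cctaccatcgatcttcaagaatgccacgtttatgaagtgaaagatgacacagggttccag

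Levels are log2 processed intensities from which the 75th percentile of the array was subtracted. Signal was uneven between arrays: 20.6% to 56.6% of probes stood above background on KO arrays, against 43.5% to 63.3% on WT arrays. All 4 arrays under 40% were KO arrays, namely KO set 1 replicate 4 and KO set 2 replicates 1, 2 and 3, called dim below. After scaling, the median of all 20407 genes was 0.47 higher in KO, so gene differences are also given relative to that median, and p-values refer to the difference before this subtraction. Bmi1 had 2 probes. The first averaged 1.79 ± 1.85 in KO and 0.70 ± 1.87 in WT, and the second -0.25 ± 1.91 in KO and -3.99 ± 1.34 in WT (SD, n = 7 each). The labels do not say which part of the gene was deleted, so these probes check nothing about the labels. All 8 B cell markers examined were above background on every KO array, and 7 or 8 of them on WT arrays. Of 6 B-1a markers, 2 to 6 were above background on KO arrays, against 5 or 6 on WT arrays, and Cd5 passed it on 3 of the KO arrays and 6 of the WT arrays. Relative to all genes the 6 had a median difference of -0.99, and 1 lay above the all-gene median, Itgam at 0.63. Bhlhe41 had the largest difference, -5.07 (adjusted p 0.213 by limma). It averaged -0.23 ± 3.24 in KO and 4.38 ± 0.40 in WT (SD, n = 7 each). The log2 of the summed unlogged levels of 7 macrophage markers ran between 3.15 and 9.36 on KO arrays and between 3.35 and 7.41 on WT arrays. Of these markers, 2 to 6 were above background on KO arrays and 3 to 7 on WT arrays. The macrophage sum was highest on KO set 2 replicates 2 and 1, as were the sums of the B cell, B-1a and granulocyte markers. Such a sum is set mostly by its brightest gene, which for the B-1a markers is Itgam, at a mean of 10.46 in KO and 9.36 in WT. Of the 6 B-1a markers, 2 were above background on KO set 2 replicate 2 and 3 on replicate 1. The B cell sum was 12.72 and 11.12 there, against 8.04 to 9.77 on WT arrays. These arrays also had the lowest 75th percentiles, 3.63 and 5.04, which were subtracted from every level. Of 6 granulocyte markers, Ly6g was above background on all arrays (5.09 ± 1.37 in KO and 4.18 ± 0.78 in WT, SD, n = 7 each) and Elane on 1 KO and 2 WT arrays, while Epx, Mpo, Prg2 and S100a8 were above it on 0 arrays. The part of these shifts in the results below was not tested.

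As a family, the mitochondrial ribosomal protein genes were spread evenly around the genome-wide median, with no member passing the test in either direction. The median difference of the 71 genes relative to all genes was -0.06 on the log2 scale, 34 of them lay above the all-gene median, and single genes ran between -2.59 for Mrpl21 and 2.80 for Mrpl30. By limma with Benjamini-Hochberg adjustment over all 20407 genes, 0 of the 71 were called higher in KO, where 0.0049% of all genes were, and 0 lower, where 0.0196% were (0.0245% in either direction). The smallest adjusted p was 0.213, for Rbfa. At an unadjusted p under 0.05, 5 were higher (Rbfa, Mrpl30, Mrps9, Mrpl12 and Mrpl33) and 3 lower (Mrpl21, Mrpl37 and Mrpl27), where 10.1% of all genes were higher and 4.23% lower by that rule. With scaling to those probes that stood above background throughout, that count was 2 higher and 8 lower, beside 0.887% and 17% of all genes, whose median then moved to -0.87.

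**Figure D1:**
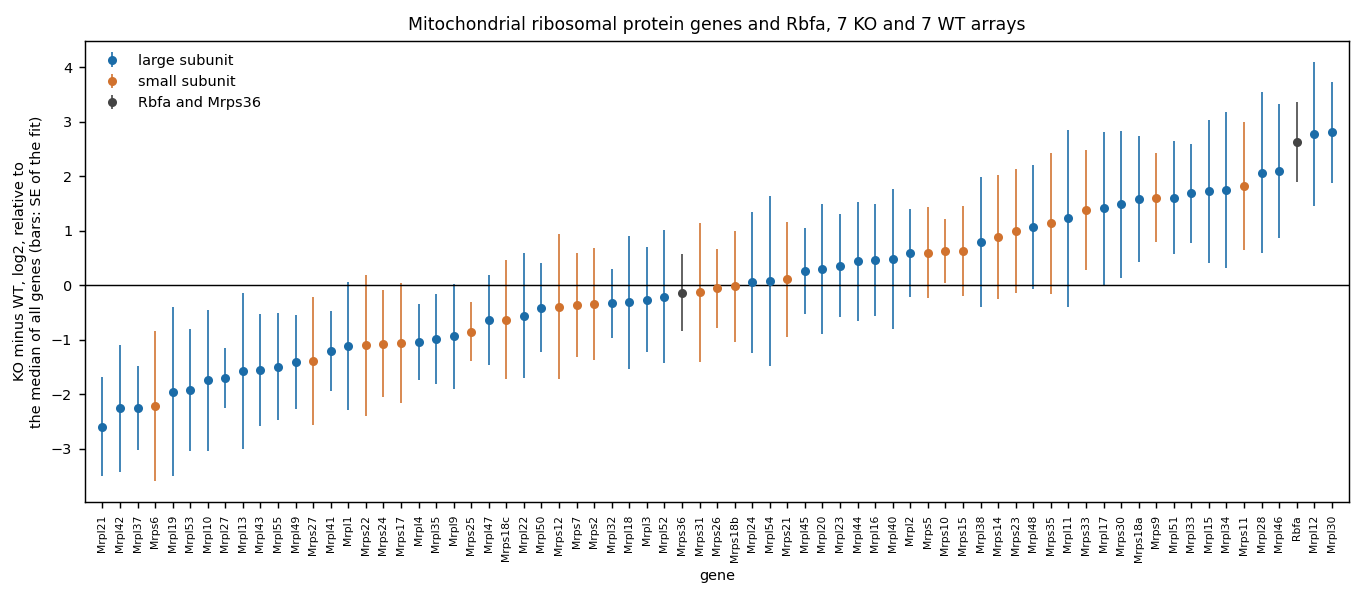
KO minus WT difference of each of the 71 genes (log2, relative to the median of all genes) with the SE of the limma fit, ordered by size and coloured by subunit. Large-subunit genes run between -2.59 for Mrpl21 and 2.80 for Mrpl30, and small-subunit genes between -2.22 for Mrps6 and 1.82 for Mrps11.

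The subunits had close medians. Of 46 large-subunit genes tested, 23 lay above the all-gene median, with a median of -0.08, and of 23 small-subunit genes 10 lay above it, with a median of -0.06. By origin, 20 of 42 genes with a bacterial homologue lay above, with a median of -0.29, and 13 of 27 genes specific to mitochondria, with a median of -0.02. The genes sit on 18 chromosomes, with at most 10 on one, chromosome 11.

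Among the large-subunit genes higher in KO, the smallest p was that of Mrpl30, which encodes the mitochondrial relative of bacterial L30. On the probe printed above, the KO arrays ran between 2.49 and 7.33 with a median of 4.26, against a range of -1.55 to 3.38 and a median of 1.67 on the WT arrays. The highest values came from KO set 2 replicates 1 and 2, and 5 of 7 KO arrays lay above every WT array. The difference was 3.27 (SE 0.93), or 2.80 relative to all genes, with an adjusted p of 0.259 by limma, and 1.44 relative to all genes without the 4 dim KO arrays. A second probe under this name, placed on chromosome 11 at chr11:3370827-3370886, averaged 2.25 ± 2.45 in KO and -1.46 ± 2.10 in WT (SD, n = 7 each) and so pointed the same way. Whether it reads the same gene or a near copy cannot be told apart from the files.

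Mrpl12 encodes the stalk protein of the large subunit, to which translation factors bind. Its levels in KO were 2.29, 2.70 and 7.58 in set 1 and 8.26, 10.48, 7.06 and 2.30 in set 2, against 5.88, 2.81 and 1.05 in WT of set 1 and 2.96, -0.54, 3.34 and 2.45 in WT of set 2. The 4 KO arrays above 7 were the 4 with few probes above background, and the other 3 KO arrays lay inside the WT range. Its difference of 3.25 (SE 1.32, adjusted p 0.348) corresponds to 2.78 relative to all genes. Without those 4 arrays the relative difference was -0.29.

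Mrpl33, a small protein of the large subunit and the owner of the first promoter shown, had KO levels between 1.11 and 8.60 with a median of 4.48, against 1.83 to 3.48 in WT with a median of 2.46. Of the KO arrays, 5 lay above all WT arrays and 1 below all of them, KO set 2 replicate 4. The relative difference was 1.68 over all arrays (adjusted p 0.348), 1.69 in set 1 and 1.59 in set 2, but 0.06 without the 4 dim KO arrays. Mrpl46, one of the proteins acquired in mitochondria, ran between -2.87 and 5.92 in KO with a median of 0.89, and between -5.52 and 2.12 in WT with a median of -0.94. It was above background on 6 KO and 4 WT arrays. KO set 2 replicate 2 lay above all WT arrays. WT set 2 replicates 1, 2 and 4, at -5.52, -4.46 and -3.59 and not above background, lay below all KO arrays. The relative difference of Mrpl46 was 2.10 (adjusted p 0.348), and 1.14 without KO set 2 replicate 2.

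On the small subunit, Mrps9 had the smallest p. It encodes the relative of bacterial S9, a protein of the subunit's head. Its levels in KO were 2.03, 3.23 and 4.95 in set 1 and 5.20, 6.96, 5.58 and 2.07 in set 2, against 4.57, 1.77 and 1.49 in WT of set 1 and 1.92, 1.65, 1.83 and 2.30 in WT of set 2. The 4 dim KO arrays lay above all WT arrays. The difference of 2.07 (SE 0.81, adjusted p 0.346), 1.60 relative to all genes, became 0.13 without them. Mrps11 followed, with KO levels between -0.74 and 7.59 (median 1.33) against -1.08 to 2.34 in WT (median 0.35), a relative difference of 1.82 and an adjusted p of 0.353.

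**Figure D2:**
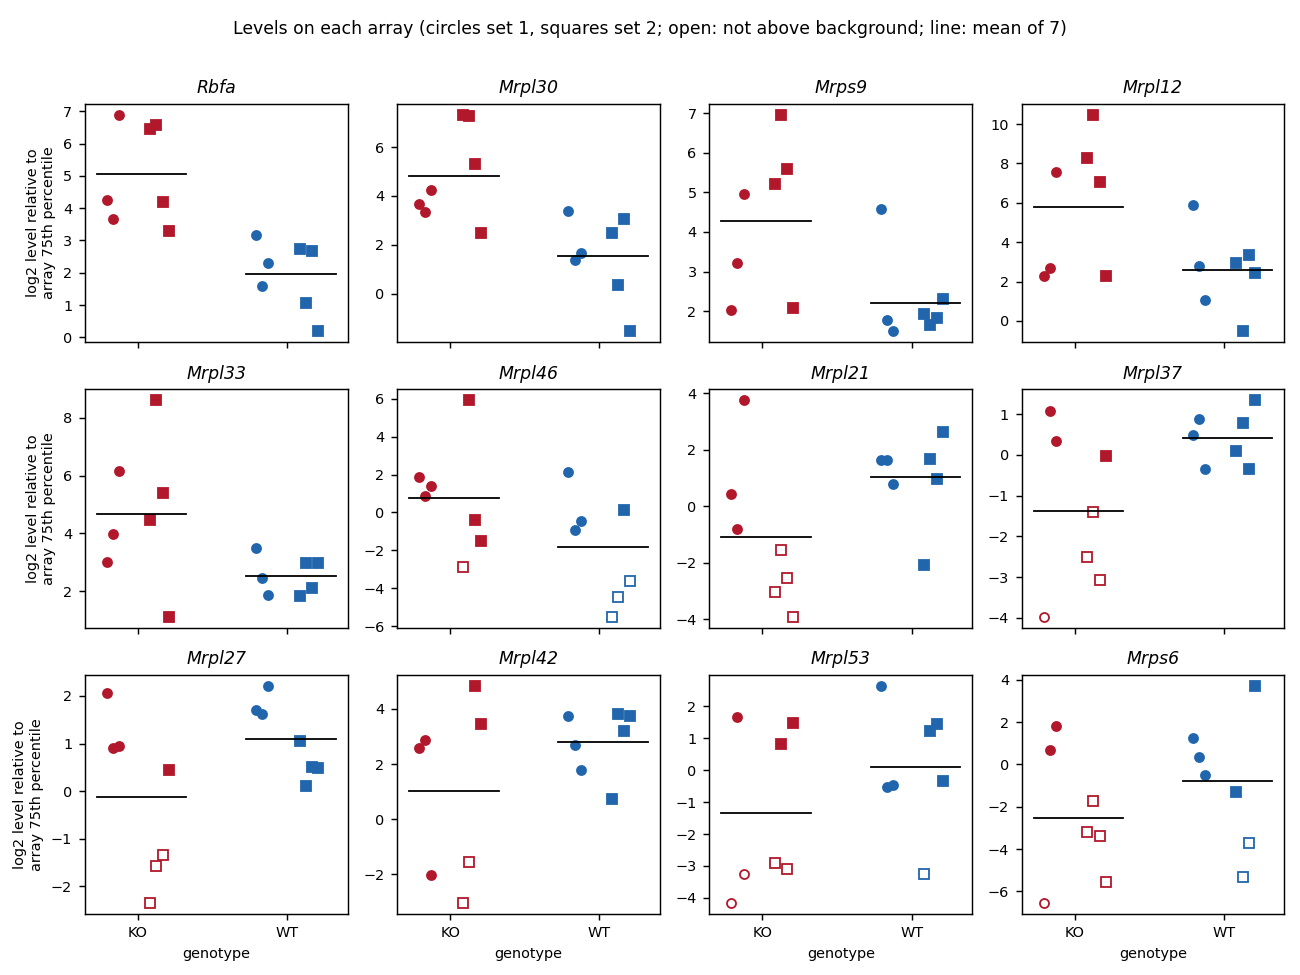
Level on each array (log2, 75th percentile subtracted) of Rbfa and 11 ribosomal protein genes, KO left and WT right in each panel, with circles for set 1, squares for set 2, open symbols for values not above background and a line at the mean of 7 arrays. Rbfa is the panel in which all KO values lie above all WT values, while open symbols make up most of the low KO values of Mrpl21, Mrpl37 and Mrpl27.

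Rbfa, whose product binds the rRNA of the small subunit during its maturation, was the gene of the family in which the genotypes did not overlap. It was added to the gene family with its values known, so they are given as a description. Its levels in KO were 4.27, 3.67 and 6.90 in set 1 and 6.45, 6.58, 4.19 and 3.29 in set 2, against 3.16, 1.60 and 2.30 in WT of set 1 and 2.74, 1.06, 2.66 and 0.18 in WT of set 2. The lowest KO value, 3.29, lay just above the highest WT value, 3.16. Groups that do not overlap in this direction were found for 0.152% of all genes, and for no other of the 71. All KO arrays below all WT arrays, found for 0.0931% of all genes, occurred in 0 of the 71. The probe was above background on all 14 arrays. Means were 5.05 ± 1.53 in KO and 1.96 ± 1.06 in WT (SD, n = 7 each), a difference of 3.09 (SE 0.74) and 2.63 relative to all genes. The relative difference was 2.50 in set 1 and 2.63 in set 2. Without the 4 dim KO arrays it was 1.69. The adjusted p of 0.213 missed the threshold.

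The genes lower in KO with the smallest p had probes that were not above background on several KO arrays. Mrpl21 encodes the relative of bacterial L21. Its KO levels were 0.45, -0.82 and 3.75 in set 1 and -3.03, -1.54, -2.53 and -3.92 in set 2, against 1.64, 1.63 and 0.78 in WT of set 1 and -2.08, 1.66, 0.98 and 2.63 in WT of set 2. All 4 KO values of set 2 were not above background, while all 7 WT values were above it, so the KO values of set 2 are poorly determined. That of replicate 4 was not the lowest of its array, where Mrps6 read -5.56. The difference was -2.13 (SE 0.91, adjusted p 0.348), or -2.59 relative to all genes. A second, dimmer probe of Mrpl21 at chr19:3292462-3292521 gave 1.16 relative to all genes, against the -2.59 of the probe at chr19:3291006-3291065.

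Mrpl37, a protein specific to mitochondria, had KO levels of -3.98, 1.07 and 0.34 in set 1 and -2.51, -1.40, -3.07 and -0.02 in set 2, against 0.49, 0.88 and -0.34 in WT of set 1 and 0.09, 0.77, -0.35 and 1.34 in WT of set 2. WT arrays kept within a narrow band, and 4 KO arrays, none of them above background, lay below it. The relative difference was -2.24 (adjusted p 0.348), and it had the same sign in set 1, -1.29, and in set 2, -3.05. Mrpl27 encodes the relative of bacterial L27, which in bacteria reaches toward the peptidyl transferase centre. Its KO levels were 2.06, 0.90 and 0.94 in set 1 and -2.34, -1.57, -1.34 and 0.44 in set 2, against 1.70, 1.61 and 2.21 in WT of set 1 and 1.06, 0.11, 0.51 and 0.49 in WT of set 2. The 3 KO values below the WT range were not above background. The relative difference was -1.70 at chr11:94521032-94521091 (adjusted p 0.348), whereas a second probe at chr11:94521320-94521379, above background on all 14 arrays, gave 0.91. Without the 4 dim KO arrays the relative difference on the used probes was -0.19 for Mrpl27, -1.21 for Mrpl37 and -2.74 for Mrpl21.

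Mrpl42, Mrpl53 and Mrps6 had the next smallest p among genes lower in KO, without reaching an unadjusted p of 0.05. Mrpl42 ran between -3.03 and 4.84 in KO (median 2.58) and between 0.74 and 3.80 in WT (median 3.21), a relative difference of -2.26. Mrpl53, whose promoter with a pair of ETS motifs is printed above, ran between -4.15 and 1.66 in KO (median -2.92) and between -3.24 and 2.64 in WT (median -0.33), a relative difference of -1.92. Mrps6, the relative of bacterial S6, ran between -6.53 and 1.83 in KO (median -3.20) and between -5.34 and 3.71 in WT (median -0.49), and differed by -2.22 relative to all genes. Leaving out 1 array moved Mrps6 to -1.28 (without WT set 2 replicate 4) or -1.30 (without KO set 1 replicate 2), and Mrpl42 to -1.49 (without KO set 2 replicate 1). Without the 4 dim KO arrays the values were 0.29 for Mrpl42, -0.32 for Mrpl53 and -3.46 for Mrps6. Among the KO values that remained, those of Mrps6 on KO set 1 replicate 2 (-6.53) and KO set 2 replicate 4 (-5.56) were not above background. Mrps6 was above background on 2 KO and 5 WT arrays, Mrpl42 on 5 and 7, and Mrpl53 on 3 and 6. In each of these 3 genes the genotypes overlapped. Of the 26 genes measured by several kept probes, 5 had probes on both sides of the all-gene median, namely Mrpl21, Mrpl27, Mrpl10, Mrpl41 and Mrpl47.

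The spread between arrays was wider in KO, in this family as in most genes. The SD over arrays was larger in KO than in WT for 67 of the 71 genes, or 94.4%, as for 86.8% of all genes. The median SD of the 71 genes was 2.74 in KO and 1.39 in WT, against 1.83 in KO and 1.03 in WT for all genes. Among the 3 brighter KO arrays the median SD was 1.23. Fewer of the genes were above background on dim arrays of set 2: 32, 36 and 37 of the 71 genes were above background on KO set 2 replicates 1, 2 and 3, and 61 to 71 on the other 4 KO arrays, against 51 to 70 on the WT arrays. In all, 45 genes (63.4%) were above background on fewer KO than WT arrays and 3 (4.23%) on more, beside 60.7% and 4.95% of all genes. The genes above background on all 14 arrays were 18 of 71, or 25.4%, against 28.7% of all genes. The family members Mrpl14, Mrpl36, Mrpl39, Mrps16, Mrps28 and Mrps34, were too dim to be tested, being above background on 1 to 3 arrays of each genotype.

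**Figure D3:**
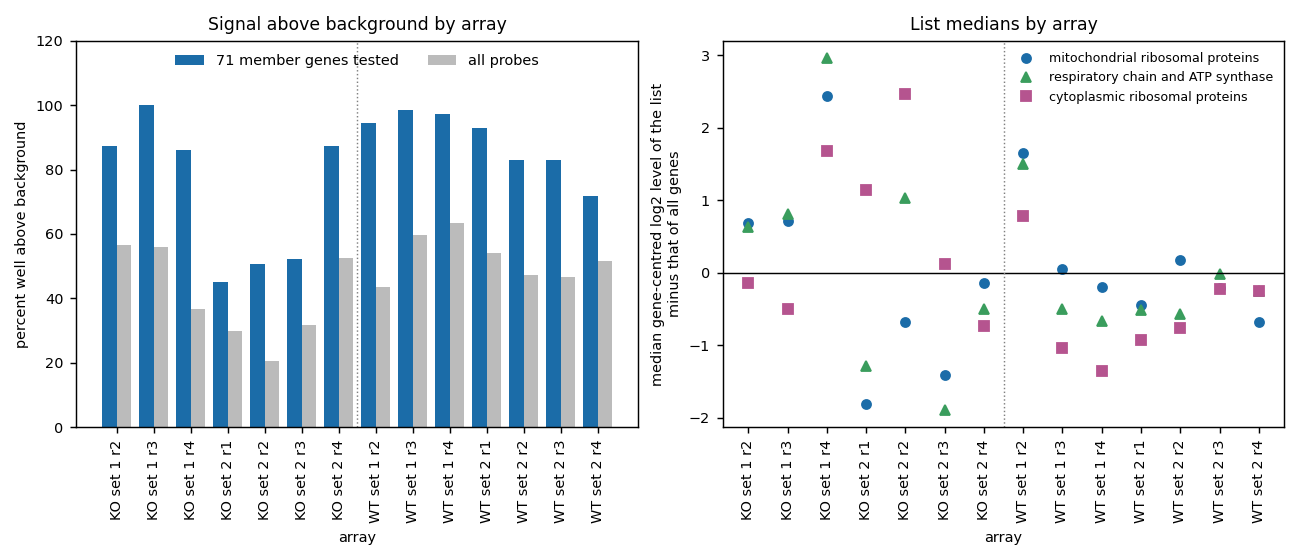
Left, percent of the 71 genes (blue) and of all probes (grey) above background on each array, KO arrays left of the dotted line and WT arrays right of it. Right, the median gene-centred log2 level of 3 gene lists on each array minus that of all genes; the mitochondrial ribosomal genes lie between -1.81 and 2.44 on KO arrays and between -0.68 and 1.64 on WT arrays.

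The median of the family differed between arrays of the same genotype. After centring each gene on its mean over arrays, the median of the 71 genes minus that of all genes was 0.68, 0.71 and 2.44 in KO set 1 and -1.81, -0.69, -1.42 and -0.14 in KO set 2. On WT arrays it was 1.64, 0.04 and -0.20 in set 1 and -0.44, 0.17, -0.22 and -0.68 in set 2. KO set 1 replicate 4, with 61 of the 71 genes above background, was highest, and KO set 2 replicates 1 and 3, with 32 and 37, were lowest. On the array KO set 1 replicate 4, 38 of the 71 genes lay above the highest WT array and 13 below the lowest, where 34.2% and 23.4% of all genes did so. On KO set 2 replicate 2, 30 lay above and 10 below, beside 49.6% and 12.8% of all genes. Within a genotype the genes did not follow each other closely from array to array, with a median pairwise correlation of 0.10 over KO arrays and 0.18 over WT arrays. The same measure was 0.93 over KO arrays and 0.86 over WT arrays for 76 genes of cytoplasmic ribosomal proteins, read from the same arrays. The lists were not matched for signal, and only 18 of the 71 genes were above background on all 14 arrays. How far values near background lower these correlations was not tested.

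The sets of experiments did not give the same order of genes. In set 1 the median of the 71 genes was 0.50 relative to all genes, with 44 above the all-gene median, and in set 2 it was -0.42, with 29 above. By limma 0 of the 71 were called within set 1, where 0.0098% of all genes were called, and 0 within set 2, where 0.0049% were. Across the 71 genes the correlation of the differences in the 2 sets was 0.19, against 0.33 across all genes, with arrays of a set sharing scaling and signal. Above the all-gene median in both sets lay 21 genes, where 31.6% of all genes did, and 19 lay below it in both.

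**Figure D4:**
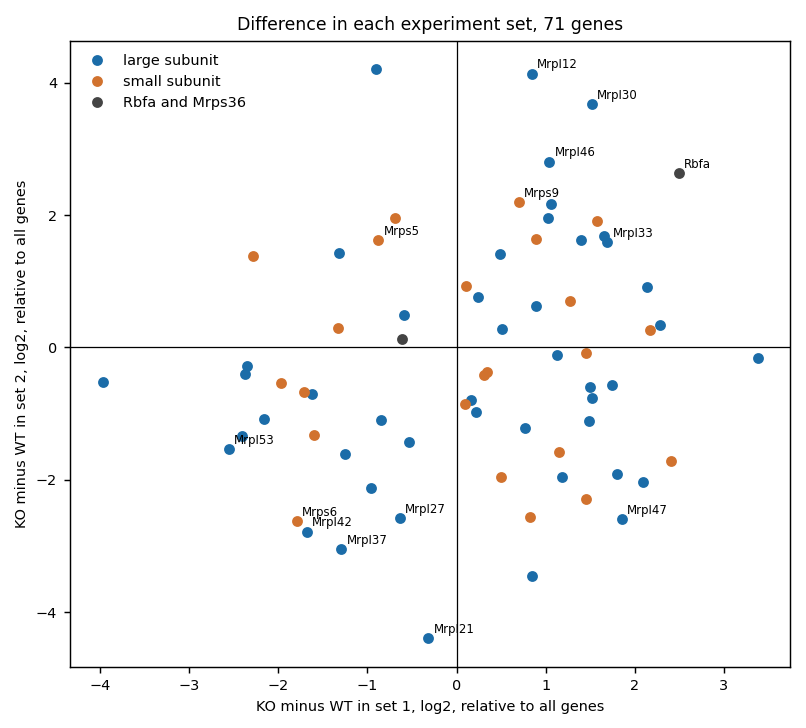
Each of the 71 genes by its KO minus WT difference in set 1 (horizontal axis) and in set 2 (vertical axis), log2 relative to the median of all genes, coloured by subunit and labelled for the genes followed array by array. Rbfa lies at 2.50 and 2.63 in the upper right, Mrpl47 at 1.85 and -2.59 in the lower right.

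The test of the difference between sets called 0 of the 71 genes and 0% of all genes. At an unadjusted p under 0.05 it held 3 of them, Mrpl47, Mrps5 and Mrpl28, where 4.85% of all genes did. Mrpl47, the relative of bacterial L29 near the exit tunnel, had KO levels of 3.74, 2.41 and 5.14 in set 1 and -2.95, -1.48, -0.28 and 1.72 in set 2, against 1.47, 1.89 and 2.08 in WT of set 1 and 0.76, 1.40, 0.13 and 1.75 in WT of set 2. All KO values of set 1 lay above all WT values, and the first 3 of set 2 lay below them. Those of KO set 2 replicates 1 and 2, -2.95 and -1.48, were not above background and are poorly determined. Over both sets together the probe used gave -0.63 relative to all genes. Other kept probes of Mrpl47 gave 0.09 and 0.005, both above background on every array, and -0.78. On the probe used, the relative difference was 1.85 in set 1 and -2.59 in set 2 (unadjusted p of the change 0.0212). Mrps5, the relative of bacterial S5, went the other way, with 0.97, 2.70 and 1.93 in KO set 1 and 7.79, 3.62, 5.17 and 3.34 in KO set 2, against 3.87, 2.69 and 1.38 in WT of set 1 and 3.22, 3.35, 2.11 and 1.42 in WT of set 2. Its relative difference was -0.88 in set 1 and 1.62 in set 2.

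One array decided the outcome within set 2. With KO set 2 replicate 4 left out, so that the 3 KO arrays with few probes above background faced 4 WT arrays, 7 of the 71 genes passed the test (9.86%), where 13% of all genes did. Mrpl12 (5.42 relative to all genes), Mrpl30 (4.42), Rbfa (2.95), Mrps9 (2.86), Mrpl33 (2.56) and Mrps10 (1.21) were higher and Mrpl27 (-3.42) was lower, with adjusted p between 0.0315 and 0.0380. With that array the count was 0.

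**Figure D5:**
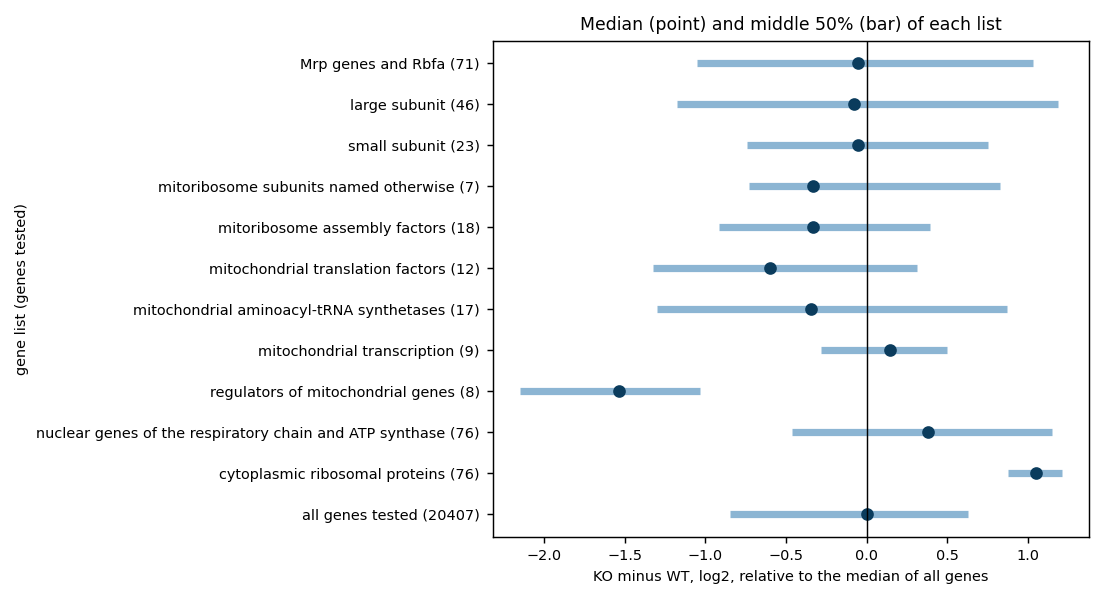
Median (point) and middle 50% (bar) of the KO minus WT differences of the mitochondrial ribosomal genes and related gene lists, log2 relative to the median of all genes, with the number of genes tested in brackets. The mitochondrial ribosomal genes centre at -0.06 and the cytoplasmic ribosomal protein genes at 1.05.

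Other parts of the mitochondrial translation apparatus were set beside the ribosome. In each of the lists that follow 0 genes passed the test after adjustment in either direction. Their counts at an unadjusted p under 0.05 stand beside 10.1% of all genes higher in KO and 4.23% lower by that rule in limma. The 7 subunits with names of their own had a median of -0.33 relative to all genes and 0 passed an unadjusted p of 0.05. Among them Chchd1, a small-subunit protein, differed by 1.25 and Aurkaip1 by 0.77. Assembly factors held 18 tested genes, 5 of them above the all-gene median, with a median of -0.33. Of these, 3 were higher at an unadjusted p under 0.05: Mettl17, a methyltransferase-like factor of small-subunit assembly, at 2.80, Dhx30, an RNA helicase of mitochondrial RNA granules, at 2.65, and Ngrn, which binds the large rRNA, at 2.30. Mettl17 was above background on 4 KO and 3 WT arrays, Dhx30 on 6 and 5, and Ngrn on 5 and 4. For 12 translation factors the median was -0.60, with Gfm1, an elongation factor, at 2.04 (unadjusted p 0.028 by limma) and the initiation factor Mtif2 at 0.53. Gfm1 was above background on 4 KO arrays and 1 WT array, so its difference rests largely on values near background.

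The 17 genes tested for the charging of mitochondrial tRNAs encode aminoacyl-tRNA synthetases, apart from Pet112, Gatc and Qrsl1 of the glutaminyl-tRNA amidotransferase. These 17 genes held wide differences in both directions. Their median was -0.35, with 4 higher and 1 lower at an unadjusted p under 0.05. Ears2, the glutamyl-tRNA synthetase, averaged -1.50 ± 2.13 in KO and 1.81 ± 1.09 in WT (SD, n = 7 each), which is -3.78 relative to all genes, with 6 of 7 KO arrays below every WT array and an adjusted p of 0.256 by limma. Pet112, part of the glutaminyl-tRNA amidotransferase, averaged 3.86 ± 2.91 in KO and -0.54 ± 2.20 in WT (SD, n = 7 each), which is 3.94 relative to all genes, with 6 of 7 KO arrays above every WT array and an adjusted p of 0.265 by limma. Of 9 genes of mitochondrial transcription and DNA maintenance, 6 lay above the all-gene median, led by Polg, the mitochondrial DNA polymerase, at 1.75, the 1 gene of this list with an unadjusted p under 0.05.

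Regulators of mitochondrial genes had a median of -1.54 over 8 tested genes, with 1 above the all-gene median and 0 higher and 2 lower at an unadjusted p under 0.05. Gabpb1, the partner of the ETS factor Gabpa, averaged -2.57 ± 2.60 in KO and 0.35 ± 1.47 in WT (SD, n = 7 each; -3.39 relative to all genes), and was above background on 2 KO and 6 WT arrays. Gabpa differed by -1.42, Nrf1 by -2.20, Yy1 by -1.65 and Myc by -2.14, and Pprc1, a coactivator related to PGC-1, by 1.53. Among the ribosomal genes themselves, the 23 tested genes with the ETS motif had a median of -0.21, against -0.04 for the 40 without it. The 12 with the Yy1 motif had a median of -0.69, with 2 above the all-gene median, against 0.11 for the 51 without it, 27 of which lay above. The 7 with the Nrf1 motif had a median of -0.33, against -0.09 for the 56 without it. For the E-box CACGTG, the 4 with it had a median of -0.17, against -0.13 for the 59 without it. TATAAA, the motif of the TATA-binding protein, went the other way, with 0.47 for the 5 with it and -0.14 for the 58 without it. Whether any motif goes with the differences was not tested.

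Cytoplasmic ribosomal protein genes gave a different distribution, with 74 of 76 above the all-gene median, a median of 1.05, and 37 higher and 0 lower at an unadjusted p under 0.05, though 0 passed after adjustment. Without the 4 dim KO arrays their median was 0.08, and that of the mitochondrial ribosomal genes was 0.02. The 76 nuclear genes of the respiratory chain and ATP synthase, whose products assemble with those made by mitochondrial ribosomes, had a median of 0.38, with 50 above the all-gene median and 13 higher at an unadjusted p under 0.05. In set 1 and set 2 their median was 1.02 and -0.12, beside 0.50 and -0.42 for the mitochondrial ribosomal genes. Signal level went with the difference in all genes: above the level that divides the ribosomal genes into a brighter and a dimmer part, 62.0% of all genes lay above the all-gene median, and below it 41.9%. Of the ribosomal genes, 18 of the 35 brighter ones and 16 of the 36 dimmer ones did so, with medians of 0.05 and -0.20.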

How the data were processed

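One-colour arrays measured 7 Bmi1 KO samples and 7 WT samples of peritoneal B-1a cells. Groups came from the genotype label and the set of experiments from the numbering style of the titles. Per the file headers, spot intensity came from Agilent Feature Extraction 10.7.3.1, positions refer to build mm9, and marks for signal above background, saturation and outliers are scores of 0 or 1. Set 1 lay on 1 slide and set 2 on 2 others, one of which held WT arrays only. The deposited table holds the authors' processed log2 values, with a median of 3.952 in every column; its normalization method is not given here. It followed quantile-normalized scanner values of the same array and served as an alternative.

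Values analysed were log2 processed intensity minus the 75th percentile of the array's spots other than controls. Spots marked as outliers did not enter, replicate spots were averaged, and 0 spots were saturated. Probes above background on at least 4 of 7 arrays of either genotype were kept (29679), and a gene was read by its probe with the highest mean. Members passed this filter through either genotype, so counts over tested members describe only those. Tests used limma 3.58.1 in R 4.3.3 (lmFit and eBayes with set as covariate, two-sided, Benjamini-Hochberg over 20407 genes, threshold 0.05), within-set and between-set contrasts from a model with a mean per genotype and set. The procedure was tested on simulated data. Promoters are RefSeq's (GRCm38.p6), and figures were drawn with matplotlib 3.10.9.

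Members and lists were chosen with earlier results of these data known, Rbfa among them. Values by array were given for Rbfa, the 6 members with the smallest p in each direction and the 2 with the smallest p of the set difference; of other lists up to 3 genes by smallest p were named, and Gabpa, Nrf1 and Yy1 for their motifs after their values were seen. Alternatives changed scaling, normalization, background correction, filter, probe choice, covariates and samples. Deviations of same-numbered KO and WT samples correlated at -0.23 to 0.18, highest for replicate 3 of set 1. Groups of so few arrays, with dim ones among the KO arrays, cannot show whether samples were paired. The main test did not use the numbers as pairs.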

Additional observations from a re-analysis of the deposited data

Results flagged for a closer look

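Single arrays that stood far from the others of their group were looked for in 64 groups of values, where chance marks about 1 in 20, and 4 were found. WT set 1 replicate 2 was far above the other WT arrays for Mrps9, at 4.57. The same array had the highest median of the mitochondrial ribosomal genes relative to all genes among WT arrays, 1.64. It had the lowest share of probes above background of the WT arrays, 43.5%. WT set 2 replicate 1 was far below the other WT arrays for Mrpl21, at -2.08. In KO set 2, replicate 4 stood apart with 62 of the 71 genes above background, against 32, 36 and 37 on the other 3 arrays. The causes were not tested.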

How the results depend on the processing

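The count of 0 ribosomal genes called held under all 14 alternatives (smallest adjusted p 0.124) and when each array was left out (smallest adjusted p 0.0978 to 0.429). Within set 2, leaving out each array gave 0 to 7 calls, with 7 without KO set 2 replicate 4. The median of the family ran between -0.65 on slide 2 alone, an alternative chosen after seeing the data, and 0.50 in set 1 alone, and between -0.27 and 0.18 with an array left out. With the filter narrowed to probes above background on all 14 arrays, 13 of 20 genes lay above the all-gene median. The replicate block gave 0 calls, a median of -0.06 and 34 genes above, so it changed no call. Scaling moved the median KO minus WT of all genes, which was 0.47, to -0.87 with probes above background on all arrays, -0.06 by quantile normalization, 0.32 by normexp and -0.05 in the deposited table. At an unadjusted p under 0.05, the 5 higher and 3 lower genes became 2 and 8 where that median was -0.87. Counts were 6 and 0 by normexp, 3 and 0 with slide as a block and 1 and 2 without the 4 dim KO arrays. In set 1 they were 1 and 0, and in set 2 they were 6 and 3. Of all genes, 10.1% were higher and 4.23% lower, and 0.887% and 17% where that median was -0.87. The shares were 11% and 3.28% by normexp, 5.05% and 3.98% with slide as a block and 1.91% and 3.79% without those arrays. For set 1 the shares were 2.06% and 4.95%, and for set 2 they were 6.94% and 2.77%. Mrpl47 turned to 0.11 by quantile normalization and by normexp, 0.13 in the deposited table, 0.035 with slide as a block, 1.11 without the dim arrays and 1.85 in set 1. Mrpl27 turned to 0.31 with the filter to probes above background on all arrays, where its other probe was used. Without the dim arrays Mrpl12 turned to -0.29, Mrpl42 to 0.29 and Mrps5 to -0.10, and Mrps5 was -0.88 in set 1. The cause of the other turns was not tested. Mrpl46, Mrpl21, Mrpl37, Mrpl42, Mrpl53 and Mrps6 have no probe above background on all arrays and no value under that filter. Rbfa stayed between 1.52 and 2.71 under the alternatives. Dim KO arrays limit what can be read of genes near background.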
